A study of Mus musculus with 25 samples.

Results

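A run of 6 neighbouring genes of mouse chromosome 10, Cpsf6, Cpm, Mdm2, Slc35e3, Nup107 and Rap1b, was followed library by library in hepatic progenitors carrying oncogenic Ras and in the tumours they formed. They are 6 of the 24984 genes in the count table, with the Entrez identifiers 432508, 70574, 17246, 215436, 103468 and 215449 in that order. They were chosen by their measured values, namely higher counts in the Ras cells than in control cells and in tumour cells than in stroma, with Cpm noted as leaving the others in the liver tumour cells. What these comparisons show for the 6 genes is therefore given as a description, and tests are given for the contrasts that did not select them.

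RNA was sequenced from 9 libraries of cultured BMEL cells and from 16 libraries of cells sorted from tumours. BMEL cells are bipotential precursors of the hepatocyte and cholangiocyte lineages. The parental line was clonally derived from the embryonic liver of a C57BL/6xC3H mouse and is not transformed by itself. The 3 cultured groups, of 3 libraries each, were growing exponentially on collagen: cells with the empty vector, called BMEL WT, and the RasLOW and RasHIGH populations, which carried H-Ras G12V on a bicistronic vector with a fluorescent protein and were sorted for weak or strong fluorescence. The latter are overlapping populations of 1 clonal line and not separate clones. The study's methods call the libraries of a group independent biological samples, and the labels do not say what was kept separate. The other 4 groups of 4 libraries came from 4 athymic nude mice, which lack a normal T-cell compartment. Each mouse gave fluorescent tumour cells and non-fluorescent stromal cells of its liver tumour and of its peritoneal tumour. The labels do not say which Ras population was injected.

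Mdm2 is the ubiquitin ligase that binds p53, blocks its activity and sends it for degradation, and p53 in turn switches on Mdm2 transcription, so the pair forms a feedback loop. In liver progenitors, as in other cells, p53 restrains proliferation and can trigger arrest or death. The neighbours have unrelated work: Cpsf6 is a subunit of cleavage factor Im, which sets where pre-mRNAs are cut and polyadenylated, Nup107 is a scaffold subunit of the nuclear pore, Rap1b is a small GTPase of the Ras family active in adhesion, Cpm is a membrane-anchored carboxypeptidase that trims basic residues from peptides, and Slc35e3 belongs to a family of nucleotide-sugar transporters. In human tumours MDM2 is known as a gene that is often gained together with neighbours, and CDK4, HMGA2, FRS2 and YEATS4 frequently belong to that set. DNA copy number was not analysed here.

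On NCBIM37, the assembly also called mm9, the 6 genes lie on chromosome 10 between bases 116781724 and 117282991, a span of 501268 bp. Cpsf6 occupies 116781724 to 116814029, and 252526 bp separate it from Cpm at 117066556 to 117124408. Cpm is the only one on the plus strand. Its 3′ end faces that of Mdm2 (117125944 to 117147814) across 1535 bp, and since the strand setting of the counting is not given in the sources used here, reads running past the end of one gene cannot be told from antisense reads of the other. Slc35e3 (117170735 to 117183414), Nup107 (117187680 to 117229761) and Rap1b (117251527 to 117282991) follow, all on the minus strand.

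Promoters are shown for the gene that gives the neighbourhood its name, for the pair with the highest changes and for Cpm, which left the others in tumours. RefSeq held 1 promoter for each of the 6 genes on GRCm38.p6, a later build than that of the positions above. Each runs 5′ to 3′ from 250 bases before to 50 bases after the annotated start. Capitals mark matches, on either strand, to an ETS motif (CCGGAAG), an AP-1 motif (TGANTCA), an E-box (CACGTG), a CRE (TGACGTCA) or the p53 half-site consensus, none of which overlapped another.

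Mdm2 (chr10:117710709-117711008, minus strand): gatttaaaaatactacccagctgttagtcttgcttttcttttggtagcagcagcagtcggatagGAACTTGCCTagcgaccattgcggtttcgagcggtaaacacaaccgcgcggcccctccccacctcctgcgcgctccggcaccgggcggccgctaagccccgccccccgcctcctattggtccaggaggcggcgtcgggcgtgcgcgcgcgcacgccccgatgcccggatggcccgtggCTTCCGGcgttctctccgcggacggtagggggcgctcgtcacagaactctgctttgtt

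Nup107 (chr10:117792656-117792955, minus strand): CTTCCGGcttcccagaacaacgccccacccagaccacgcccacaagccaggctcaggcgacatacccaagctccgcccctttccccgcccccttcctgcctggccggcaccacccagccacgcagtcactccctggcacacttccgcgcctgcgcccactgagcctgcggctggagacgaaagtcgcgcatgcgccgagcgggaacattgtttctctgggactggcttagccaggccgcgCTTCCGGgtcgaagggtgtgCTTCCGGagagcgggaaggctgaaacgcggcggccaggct

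Rap1b (chr10:117845925-117846224, minus strand): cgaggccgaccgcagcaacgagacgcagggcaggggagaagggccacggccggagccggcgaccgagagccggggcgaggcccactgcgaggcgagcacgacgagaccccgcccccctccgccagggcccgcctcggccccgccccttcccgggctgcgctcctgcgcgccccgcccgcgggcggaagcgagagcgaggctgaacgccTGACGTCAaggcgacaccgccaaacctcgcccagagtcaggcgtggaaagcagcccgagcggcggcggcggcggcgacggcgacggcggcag

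Cpm (chr10:117629250-117629549, plus strand): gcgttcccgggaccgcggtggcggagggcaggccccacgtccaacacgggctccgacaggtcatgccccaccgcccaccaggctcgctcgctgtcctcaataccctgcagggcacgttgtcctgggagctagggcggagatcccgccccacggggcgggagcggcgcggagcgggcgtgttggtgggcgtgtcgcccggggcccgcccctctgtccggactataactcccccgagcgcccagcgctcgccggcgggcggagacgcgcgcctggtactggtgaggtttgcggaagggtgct

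All 6 promoters were rich in CpG, with 27 to 48 CpG dinucleotides in 300 bases against a median of 7 over the 27025 RefSeq promoters of that length, and a GC content of 64.7% to 78% against a median of 52.7%. Nup107 held 3 ETS matches and Mdm2 held 1, a motif present in 9.12% of all promoters. Mdm2 also held 1 match to the p53 half-site consensus, found in 8.37% of promoters. Rap1b held 1 CRE, found in 1.88%, and Slc35e3 held 1 E-box, found in 7.24%. Cpsf6 and Cpm held none of the 5 motifs, and no AP-1 match was found in any of the 6, against 7.93% of all promoters. No motif occurred in more than 2 of the 6 promoters. The internal promoter of Mdm2, where its p53 response elements are known to lie, is outside the window.

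Total counts per library ran from 20818989 to 51241336, so the members were counted deeply: the lowest count of any of them was 67, for Cpm in a stromal library. Levels are given as CPM, reads of a gene scaled to a library of fixed size, with TMM scaling over all 25 libraries. The 10 hepatic epithelial progenitor markers summed to 7572 to 10790 CPM in cultured cells, with Krt8, Krt18 and Krt19 well detected, Onecut1 without a count in either Ras group and Epcam without one in RasLOW. Leukocyte markers summed to at most 9.92 CPM in culture. Together the 6 genes took 0.174% to 0.191% of all counts in BMEL WT, 0.758% to 0.859% in RasLOW, 1.16% to 1.46% in RasHIGH, 1.58% to 1.84% in liver tumour cells and 1.31% to 1.70% in peritoneal tumour cells.

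**Figure D1:**
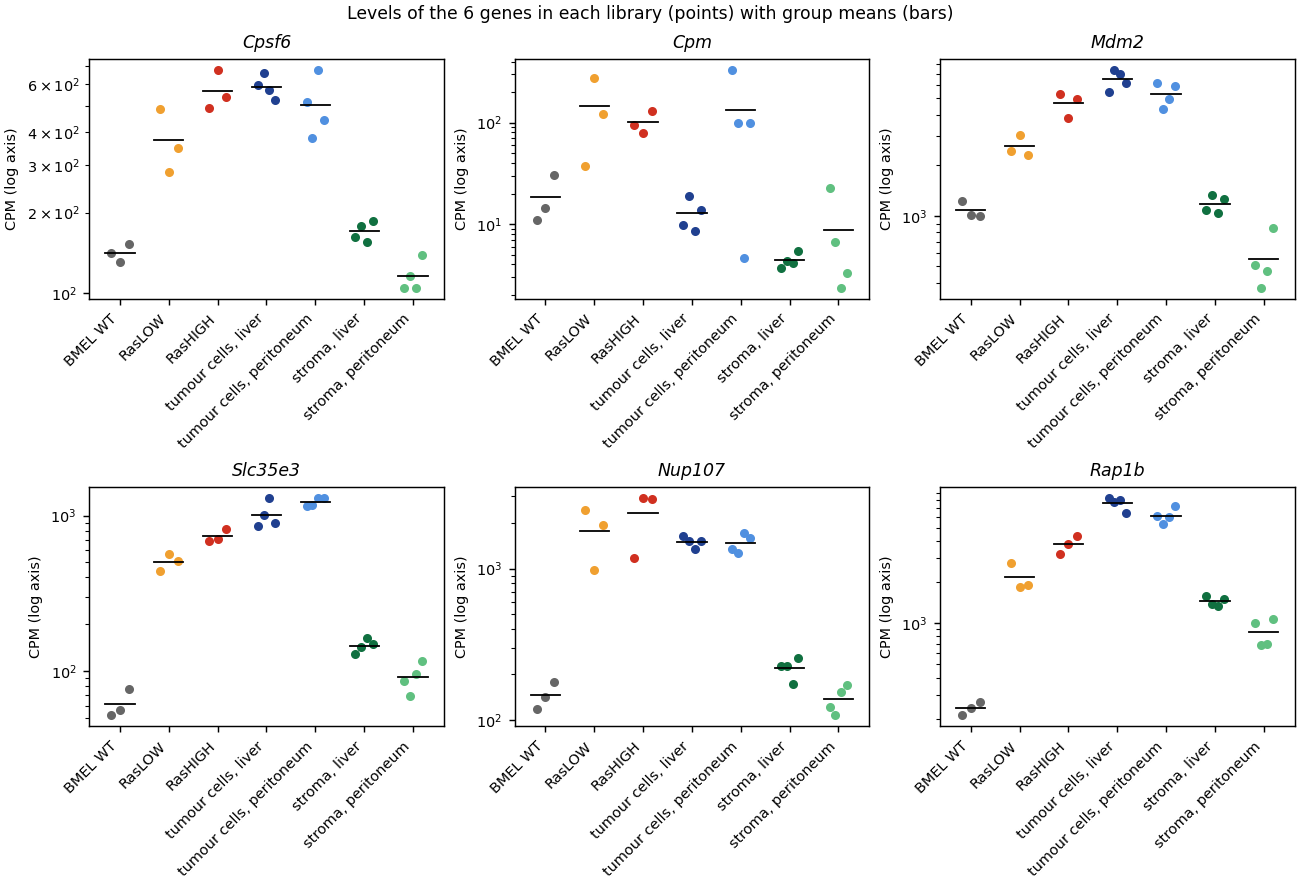
Each panel plots 1 gene in CPM on a log axis for the 7 groups, with 1 point per library and a bar at the group mean. All panels step up between BMEL WT and the Ras cells, and all but that of Cpm stay high in tumour cells. Cpm is between 8.57 and 18.8 CPM in the 4 liver tumour libraries and between 4.63 and 330.3 CPM in the peritoneal ones.

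In culture, Mdm2, the p53 ligase, measured 1223, 1016 and 1000 CPM in the BMEL WT libraries. It measured 2437, 3043 and 2315 CPM in RasLOW and 5309, 3816 and 4938 CPM in RasHIGH. The 3 groups did not overlap. The log2 fold change against BMEL WT was 1.24 ± 0.19 (SE) in RasLOW and 2.08 ± 0.18 in RasHIGH.

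The adhesion GTPase Rap1b and the pore subunit Nup107 had the largest log2 fold changes of the 6. Rap1b measured 210.9, 239.8 and 265.8 CPM in BMEL WT. It measured 2776, 1839 and 1910 CPM in RasLOW, and 3201, 3802 and 4350 CPM in RasHIGH. Every library of the Ras cells was thus above every control library, and the log2 fold changes were 3.15 ± 0.21 and 3.95 ± 0.19. Nup107 measured 117, 141.1 and 177.6 CPM in BMEL WT, 2426, 973.5 and 1938 CPM in RasLOW, and 1182, 2951 and 2867 CPM in RasHIGH. Its log2 fold changes were 3.58 ± 0.35 and 3.98 ± 0.40. It was the most variable of the 5 genes within the Ras groups, since RasLOW library 2 and RasHIGH library 1 lay well under the other libraries of their groups. The coefficient of variation was 41.5% in RasLOW and 42.8% in RasHIGH, against 15.2% for Rap1b in RasHIGH.

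Slc35e3 measured 51.8, 56.0 and 76.8 CPM in BMEL WT, 437.3, 569.7 and 506.3 CPM in RasLOW, and 682, 705.9 and 823.1 CPM in RasHIGH. All Ras libraries of this carrier gene were above all controls, with log2 fold changes of 3.01 ± 0.21 and 3.55 ± 0.20. Cpsf6 measured 141.1, 131.3 and 152.2 CPM in BMEL WT, 488.2, 283.9 and 347.2 CPM in RasLOW, and 491.9, 676.4 and 538.4 CPM in RasHIGH. Its log2 fold changes, 1.36 ± 0.20 and 1.97 ± 0.16, were close to those of Mdm2, although the genes are at opposite sides of Cpm.

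Cpm measured 11.1, 14.4 and 30.4 CPM in BMEL WT. It measured 37.8, 274.1 and 120.9 CPM in RasLOW, a spread of 7.26-fold within 1 group, and 93.9, 78.4 and 129.3 CPM in RasHIGH. All Ras libraries were above all control libraries, with log2 fold changes of 2.94 ± 0.73 and 2.40 ± 0.40, and it was the only one of the 6 whose mean was higher in RasLOW than in RasHIGH.

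With edgeR's quasi-likelihood test and an adjusted p-value under 0.05 as the call, 5 of the 6 genes (not Cpm) were called higher in RasLOW, where 1.92% of the 12307 genes tested were called higher, and all 6 were called higher in RasHIGH, where the share was 10.9% of 12331. These contrasts selected the genes, so nothing is read from the counts. Leaving out any 1 of the BMEL WT libraries ended the RasLOW calls of Cpsf6 and Mdm2, with log2 fold changes between 1.14 and 1.51 and between 1.09 and 1.34 over all libraries left out. BMEL WT libraries 1 and 2 were run in lane 3 and the third in lane 4 with all Ras libraries. Against that single lane 4 control, the log2 fold changes in RasLOW and RasHIGH were 1.35 and 2.19 for Mdm2, 2.69 and 3.23 for Slc35e3, and 3.29 and 3.69 for Nup107.

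The levels allow an order only per length, since the genes differ from 2024 bp (Rap1b) to 6534 bp (Cpsf6) of annotated exon. In BMEL WT the level per kilobase was highest for Mdm2, at 213 CPM per kb, followed by Rap1b (118), Nup107 (46.7), Cpsf6 (21.7), Slc35e3 (17.7) and Cpm (3.13). In RasHIGH Rap1b led with 1870 CPM per kb, ahead of Mdm2 (925), Nup107 (750), Slc35e3 (212), Cpsf6 (87.1) and Cpm (16.9). The libraries of Mdm2 and Nup107 overlapped in RasHIGH on this scale, and so did those of Cpsf6 and Slc35e3 in BMEL WT, so these neighbours in the order are not separated beyond their spread.

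RasHIGH was compared with RasLOW to ask whether the 6 genes follow the Ras dose. Mdm2 differed by a log2 fold change of 0.85 ± 0.22 (adjusted p = 0.233), Rap1b by 0.81 ± 0.24 (adjusted p = 0.288), Cpsf6 by 0.62 ± 0.24 (adjusted p = 0.455) and Slc35e3 by 0.55 ± 0.18 (adjusted p = 0.351). The values of these 4 genes were higher in all 3 RasHIGH libraries than in any RasLOW library, and 15.8% of all genes tested had groups that did not overlap. Nup107 (0.41 ± 0.45) and Cpm (-0.53 ± 0.63) overlapped between the populations, with adjusted p-values of 0.844 and 0.859. None of the 6 was called by edgeR, against 0.0752% of the 11962 genes tested. An unadjusted p under 0.05 was reached by 4 of the 6 and by 1170 of all genes. DESeq2 called 1 of them, Mdm2, with 414 of 17384 genes, and 1 fit over all 25 libraries called Mdm2 and Rap1b, with 917 of 15757 genes.

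**Figure D2:**
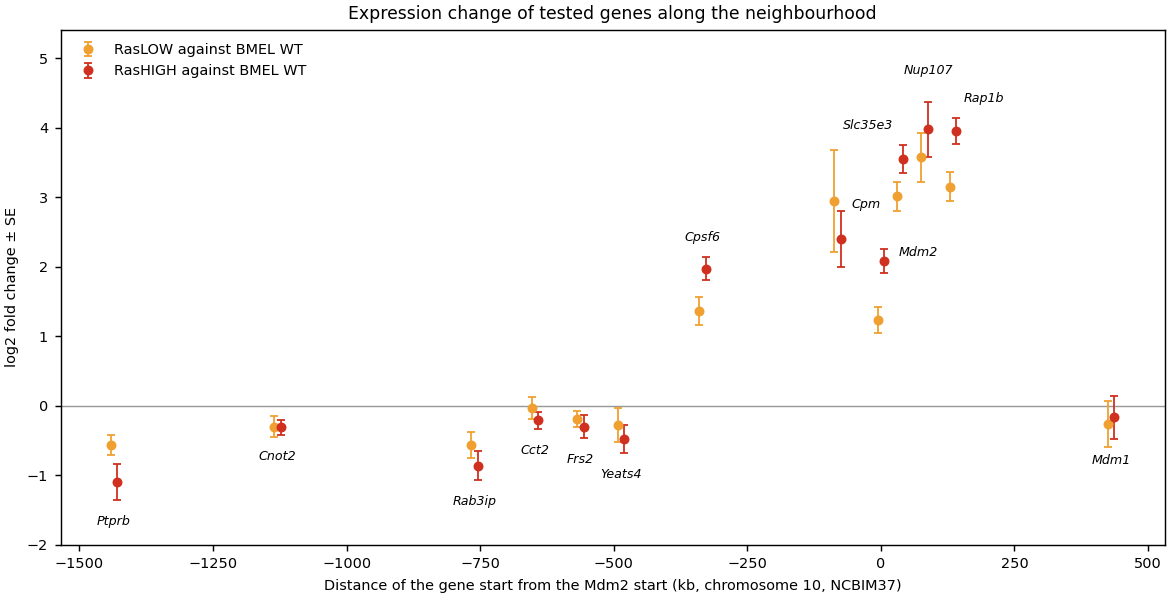
The horizontal axis is the distance of each gene's start from the Mdm2 start in kb and the vertical axis the log2 fold change with its SE for RasLOW and RasHIGH against BMEL WT. Between Cpsf6 and Rap1b the values lie from 1.24 to 3.98, and the 7 tested flanking genes with a position on NCBIM37 lie between -1.10 and -0.03, while 4933411E08Rik, which has none, is not drawn.

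Of the flanking genes with a position on NCBIM37, none was called higher in the Ras cells. Within 1 Mb of the 6 the table holds 19 such genes, of which 7 passed the filter on low counts in the cultured cells. In RasLOW none of these 7 was called and their log2 fold changes ran from -0.56 to -0.03. In RasHIGH none was called higher, and Ptprb, a receptor phosphatase (-1.10 ± 0.26, adjusted p = 0.0240), and Rab3ip, an exchange factor of Rab GTPases (-0.86 ± 0.20, adjusted p = 0.0240), fell. Yeats4, the nearest tested gene before Cpsf6 at 120160 bp, measured 38.9 to 47.2 CPM in BMEL WT and 23.5 to 36.4 CPM in RasHIGH (log2 fold change -0.48 ± 0.20, adjusted p = 0.133). Lyz2 and Lyz1, lysozyme genes between Yeats4 and Cpsf6, had too few counts in culture to be tested, with at most 5 counts for Lyz2 in any cultured library. On the other side Mdm1, 295851 bp beyond Rap1b, measured 13.1 to 17.1 CPM in BMEL WT and 8.14 to 18.1 CPM in RasHIGH (-0.17 ± 0.31, adjusted p = 0.749). Because the 6 were selected for rising, this is a description of their surroundings and no test.

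The long non-coding RNA gene 4933411E08Rik, which RefSeq places between Rap1b and Mdm1, had no position on NCBIM37, is not among the 19 flanking genes above and was singled out after its values were seen. It had 1 to 6 counts per library in BMEL WT, 10 to 15 in RasLOW and 16 to 23 in RasHIGH. The groups did not overlap, and the log2 fold change was 2.10 ± 0.74 in RasLOW (adjusted p = 0.152) and 3.0 ± 0.68 in RasHIGH (adjusted p = 0.0208), where it was called higher. Because 4933411E08Rik was singled out by these values, they are a description and no test of how far the higher values extend. The BMEL WT library with 6 counts, at 0.222 CPM, was the lane 4 control, against 0.391 to 0.488 CPM in RasLOW. The other BMEL WT libraries had 1 count each. Gm32141, between Cpsf6 and Cpm, had at most 5 counts in any library, so a change in it was not detectable at this depth.

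The mouse counterparts of genes often gained with MDM2 differed in direction, and 2 of them, Yeats4 and Frs2, are among the 7 tested flanking genes. Cdk4 measured 337.1 to 373.5 CPM in BMEL WT and 260.6 to 333.9 CPM in RasHIGH (-0.31 ± 0.14, adjusted p = 0.165). Frs2, an adaptor of growth factor receptors, differed by -0.30 ± 0.16 (adjusted p = 0.235). Hmga2, an architectural chromatin protein of fetal cells, measured 607.6 to 734.6 CPM in BMEL WT and 1347 to 2029 CPM in RasHIGH and rose (1.37 ± 0.18, adjusted p = 0.00284), whereas in RasLOW the difference was 0.70 ± 0.28 (adjusted p = 0.209). Of the other 560 tested genes of chromosome 10, 28 were called higher and 111 lower in RasHIGH, with a median log2 fold change of -0.31. Over all 12331 genes tested, 10.9% were called higher and 11.7% lower, with a median of -0.02, so chromosome 10 leaned lower than the whole.

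The genes that work with the 6 elsewhere in the genome were examined next. None of the 9 other subunits of the nuclear pore complex built on Nup107 was called in RasLOW or RasHIGH, with medians of 0.01 and -0.24, against medians over all genes of 0.01 and -0.02. Nup133, its direct partner, measured 58.7 CPM in BMEL WT and 50.7 CPM in RasHIGH (-0.24 ± 0.30, adjusted p = 0.611). Of 13 genes of cleavage factor Im and 3′ end processing, none was called in RasLOW and 1 in RasHIGH, Fip1l1 (0.53 ± 0.12, adjusted p = 0.0180), while Nudt21, which pairs with Cpsf6, differed by 0.11 ± 0.18 (adjusted p = 0.695). Of all genes tested, 734 of 12307 were called in RasLOW and 2789 of 12331 in RasHIGH. Both partner lists are short, and nothing is read from their counts. Rap1a, the close paralog of Rap1b, measured 46.8 CPM in BMEL WT and 52.7 CPM in RasHIGH (0.14 ± 0.15, adjusted p = 0.578).

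Of 15 tested genes of the Rap1 cycle, Rap1gap, which switches Rap1 off, rose in RasLOW (0.93 ± 0.14, adjusted p = 0.0152) and RasHIGH (1.67 ± 0.15, adjusted p = 0.000772). Rassf5 and Radil, effectors in adhesion, fell in RasHIGH to 1.24 and 0.115 CPM from 8.57 and 3.99 CPM. Of 19 Slc35 transporters, Slc35f2 fell in both populations and Slc35f5 rose in RasHIGH (0.81 ± 0.21, adjusted p = 0.0351). Of the M14 carboxypeptidases, the family of Cpm, 4 could be tested in RasLOW and 5 in RasHIGH, and 1, Cpz, was called lower in each, with 1.36 CPM in BMEL WT and no count in RasHIGH. Over all genes, 10.9% were called higher and 11.7% lower in RasHIGH.

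**Figure D3:**
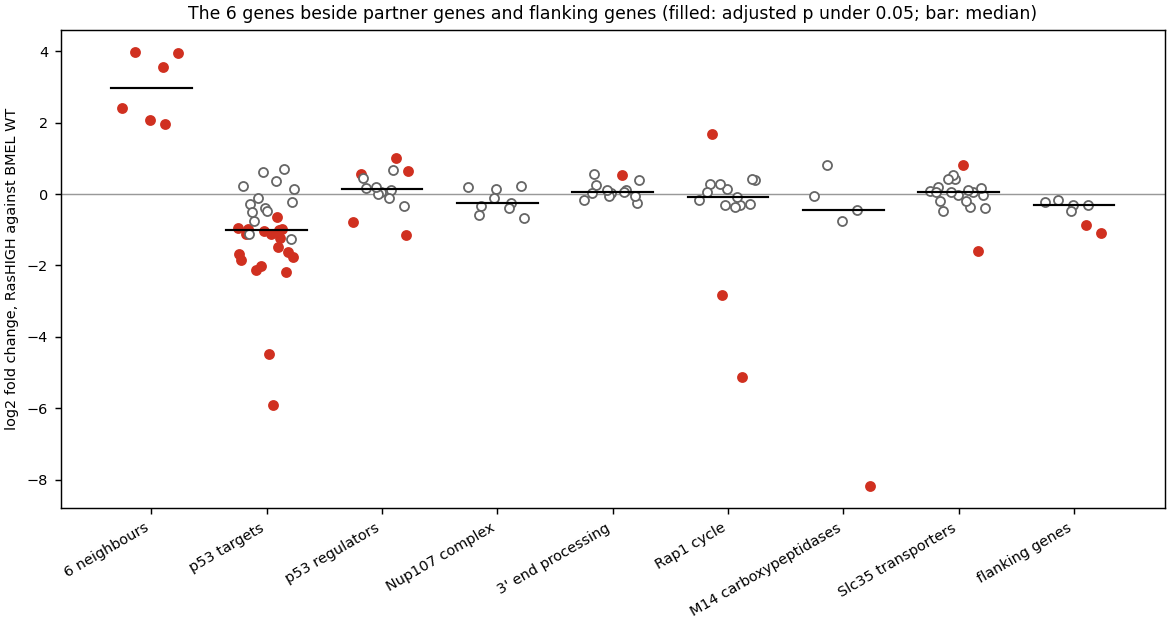
Each point is the log2 fold change of 1 gene in RasHIGH against BMEL WT, grouped into the 6 neighbours, their partner lists and the flanking genes, with filled points at an adjusted p under 0.05 and a bar at the median. The 6 neighbours lie between 1.97 and 3.98 and p53 targets have a median of -1.01, and the lowest carboxypeptidase, Cpz, has no count in RasHIGH, so its fitted value is no measure of size.

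Of 34 tested genes that p53 activates, a list without Mdm2, 13 were called lower and none higher in RasLOW (median -0.80). There 4.05% of all genes were called lower. Of 33 tested in RasHIGH 19 were called lower and none higher (median -1.01), where 11.7% of all genes were called lower. Mdm2, which p53 also switches on, went the other way, with log2 fold changes of 1.24 in RasLOW and 2.08 in RasHIGH. Pmaip1, a trigger of apoptosis, fell to 3.97 CPM in RasHIGH, starting from 85.8 CPM (-4.47 ± 0.28, adjusted p = 0.000224), and Fas, a death receptor, to 0.194 CPM, starting from 11.5 CPM (-5.90 ± 0.47, adjusted p = 0.000531). The Fas level in RasHIGH is near the 0.119 to 0.144 CPM that 3 counts make in those libraries, so the size of its fall is uncertain. Perp and Pidd1 fell by 2.17 and by 2.12 on the log2 scale. The RasLOW count was unsteady, ranging from 2 without RasLOW library 3 to 23 without RasLOW library 2, and was 4 or 5 without 1 BMEL WT library. In RasHIGH it ranged from 15 to 24 when 1 library was left out. With lane 4 libraries alone, and thus 1 control, it was 0 in RasLOW and 5 in RasHIGH.

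Most regulators of p53 passed no test. Trp53 itself ranged over 294.9 to 304.3 CPM in the controls, and the ranges were 184 to 303.5 CPM for RasLOW and 174.9 to 284.3 CPM for RasHIGH (-0.39 ± 0.19 and -0.34 ± 0.20, adjusted p = 0.278 and 0.273), and Mdm4, the partner of Mdm2, differed by 0.03 ± 0.28 and 0.01 ± 0.21 (adjusted p = 0.972 and 0.977). In RasHIGH, where 10.9% of all genes were called higher and 11.7% lower, 3 of the 14 regulators were called higher. They were Cdkn2a, whose products include an Mdm2 inhibitor (1.02 ± 0.20, adjusted p = 0.0125), the chaperone Daxx (0.65 ± 0.13, adjusted p = 0.0131) and the ribosomal protein Rpl5 (0.57 ± 0.13, adjusted p = 0.0198). The 2 called lower were the phosphatase Ppm1d (-1.14 ± 0.17, adjusted p = 0.00438), itself a p53 target, and the kinase Atm (-0.79 ± 0.15, adjusted p = 0.0106). In RasLOW only Daxx (0.60 ± 0.14, adjusted p = 0.0485) and Ppm1d (-0.74 ± 0.15, adjusted p = 0.0361) were called, and both calls were lost in every fit that left out 1 library other than RasLOW library 2. The remaining 9, namely Usp7, Rchy1, Cop1, Rpl11, Mtbp, Chek2 and Hipk2 beside Trp53 and Mdm4, had log2 fold changes between -0.34 and 0.66 in RasHIGH.

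In the tumour cells, the 5 genes other than Cpm measured far above BMEL WT in every library. Rap1b measured 8299, 7650, 7930 and 6450 CPM in the liver tumour cells of mice 1 to 4, and 6084, 5275, 6000 and 7146 CPM in the peritoneal ones. Mdm2 measured 5455, 7383, 6975 and 6176 CPM in liver tumour cells and 6151, 4338, 4945 and 5954 CPM in peritoneal tumour cells. Rap1b was thus higher in every tumour library than in any RasHIGH library, and Mdm2 overlapped RasHIGH in the peritoneum but not in the liver. Nup107 was steadier in tumour cells than in culture, with 1653, 1522, 1341 and 1522 CPM in the liver and 1354, 1272, 1715 and 1600 CPM in the peritoneum. Slc35e3 ranged from 856.6 to 1304 CPM in liver and from 1145 to 1305 CPM in peritoneal tumour cells, and Cpsf6 from 523.4 to 662.4 CPM and from 378.8 to 679.3 CPM.

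Against RasHIGH cells, the liver tumour cells differed by 1.01 ± 0.15 on the log2 scale for Rap1b, 0.48 ± 0.16 for Mdm2, 0.47 ± 0.16 for Slc35e3, 0.06 ± 0.14 for Cpsf6 and -0.62 ± 0.28 for Nup107. The peritoneal tumour cells differed from the same RasHIGH libraries by 0.71 ± 0.15, 0.20 ± 0.17, 0.75 ± 0.11, -0.16 ± 0.21 and -0.64 ± 0.29 in that order. Of the 6 genes 4 were called in the liver comparison and 2 in the peritoneal one, where 45.1% and 37.9% of all genes were, so the counts say nothing particular about them. The liver calls of Mdm2 and Slc35e3 were lost in 5 of the 7 fits that each left out 1 library. All RasHIGH libraries were run in lane 4 and all tumour cell libraries in lanes 1 to 3. A culture and a sorted tumour also differ in dissociation and sorting. Neither the lane nor these steps can be told apart from growth in the animal.

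Cpm left the group in the tumours. In liver tumour cells it measured 9.84, 18.8, 8.57 and 13.8 CPM in mice 1 to 4, all under the 78.4 CPM of the lowest RasHIGH library and within the range or below that of BMEL WT. In peritoneal tumour cells it measured 330.3, 98.4, 4.63 and 99.7 CPM. Thus 3 peritoneal tumours were within or above the range of the cultured Ras cells, 37.8 to 274.1 CPM, and that of mouse 3 was the lowest tumour library of all. The log2 fold change against RasHIGH was -2.97 ± 0.29 in liver tumour cells and 0.43 ± 0.97 in peritoneal tumour cells, and the latter became -0.54 without mouse 1. Liver and peritoneal tumour cells differed by -3.39 ± 0.89, with overlapping groups, and the value ran from -3.80 without peritoneal mouse 3 to -2.39 without peritoneal mouse 1.

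Mdm2, whose 3′ end lies 1535 bp away, showed nothing of the kind. In peritoneal tumour cells the ratio of the highest to the lowest library was 71.3 for Cpm and 1.42 for Mdm2. The log2 ratio of Cpm to Mdm2 ran from -9.67 to -8.62 in liver tumour cells, from -5.90 to -4.22 in the peritoneal tumours of mice 1, 2 and 4, and was -10.1 in that of mouse 3, while it lay between -6.01 and -3.47 in the cultured Ras cells. The peritoneal tumour library of mouse 1, with the highest Cpm, also held the most leukocyte and fibroblast marker RNA, with sums of 185 and 1517 CPM against 18.8 to 27.4 and 219.4 to 336.1 CPM in the other 3. Cpm was at 22.7 CPM in the stroma of that tumour, far under the 330.3 CPM of its tumour cells. The low library of mouse 3 was near those of mice 2 and 4 in the leukocyte and fibroblast sums. It had the lowest endothelial marker sum of the peritoneal tumour libraries, 53.5 CPM against 142.1 to 234.8 CPM. Its hepatocyte marker sum was also the lowest, 1.32 CPM against 4.45 to 10.8 CPM. The part of other cell types in the Cpm values was not tested.

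**Figure D4:**
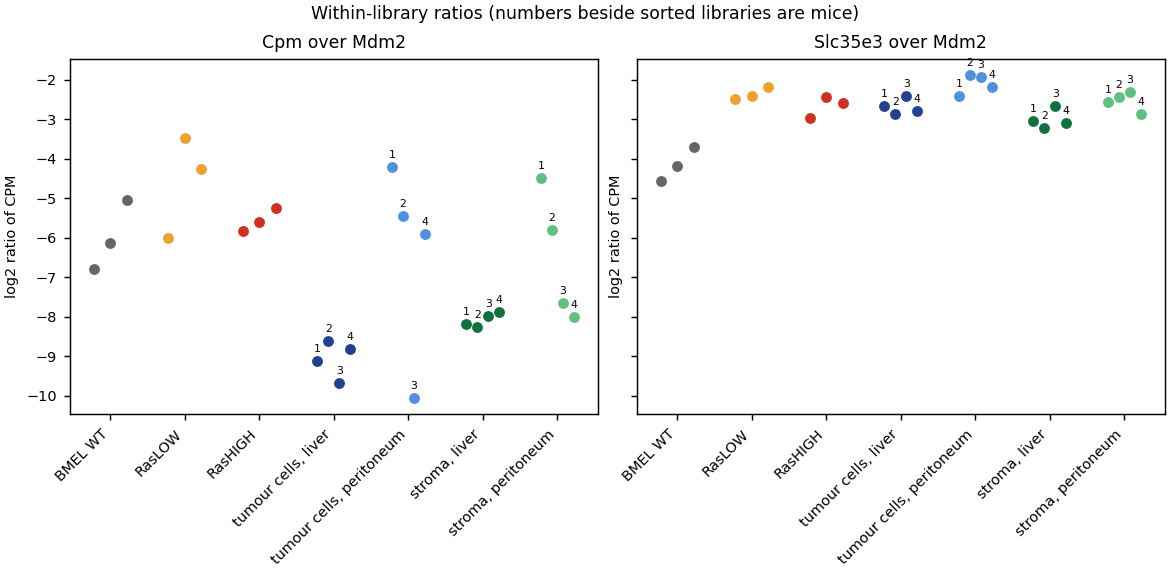
The log2 ratio of CPM between 2 genes of the same library is plotted for the 7 groups, Cpm over Mdm2 on the left and Slc35e3 over Mdm2 on the right, with mice numbered beside sorted libraries. Cpm over Mdm2 spans -10.1 to -3.47, whereas Slc35e3 over Mdm2 spans -4.56 to -1.89, with its lowest values in BMEL WT.

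For the other 5 genes no difference between the sites passed the test in tumour cells. Liver minus peritoneum was 0.31 ± 0.11 for Rap1b (adjusted p = 0.142), 0.28 ± 0.13 for Mdm2 (adjusted p = 0.264), 0.22 ± 0.16 for Cpsf6 (adjusted p = 0.488), 0.02 ± 0.11 for Nup107 (adjusted p = 0.930) and -0.28 ± 0.12 for Slc35e3 (adjusted p = 0.240). All overlapped between sites and none of the 6 was called by edgeR, against 3.2% of the 13074 genes tested. Without liver tumour library 3, Slc35e3 was called (adjusted p = 0.0474). An unadjusted p under 0.05 was reached by 3 of the 6, Cpm among them, and by 2641 of all genes. With the mouse as a block the genes called over the whole table dropped from 419 to 102 and again none of the 6 was among them. By the thresholds the study applied to sorted cells (a log2 change beyond 1 in size at a raw p under 0.05), 3.52% of genes passed and none of these 5 did. Cpm, whose liver tumour values chose it, is not read here.

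In stroma the genes were lower. Mdm2 measured 1081, 1326, 1040 and 1266 CPM in the liver stroma of mice 1 to 4 and 507.6, 372.8, 470.1 and 851 CPM in the peritoneal stroma. Rap1b measured 1571, 1385, 1336 and 1495 CPM, and 994.2, 690.7, 706.2 and 1079 CPM. Tumour cells exceeded stroma in every mouse for both, with log2 fold changes in the liver of 2.47 ± 0.14 for Mdm2, 2.40 ± 0.12 for Rap1b, 2.78 ± 0.13 for Nup107, 2.81 ± 0.14 for Slc35e3, 1.79 ± 0.10 for Cpsf6 and 1.55 ± 0.24 for Cpm. In the peritoneum they were 3.38 ± 0.27 for Mdm2, 2.92 ± 0.19 for Rap1b, 3.53 ± 0.18 for Nup107, 3.85 ± 0.17 for Slc35e3, 2.22 ± 0.19 for Cpsf6 and 4.02 ± 1.2 for Cpm, whose groups overlapped. All 6 were called at each site, as were 77.8% of all genes in the liver and 76.6% in peritoneal tumours. These contrasts had a part in choosing the genes, so nothing is read from the counts. Between sorted fractions, fewer cells of a type and less RNA per cell cannot be told apart.

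The stroma itself differed between sites. Of the 6 genes, 5 were higher in liver than in peritoneal stroma without overlap: Mdm2 (1.06 ± 0.23, adjusted p = 0.00582), Rap1b (0.70 ± 0.15, adjusted p = 0.00666), Nup107 (0.64 ± 0.17, adjusted p = 0.0148), Slc35e3 (0.63 ± 0.14, adjusted p = 0.00770) and Cpsf6 (0.51 ± 0.11, adjusted p = 0.00568). The share of all 14755 genes called higher was 14.9%, and 34.6% had groups that did not overlap. Cpm overlapped, with 3.70 to 5.37 CPM in liver and 22.7, 6.71, 2.35 and 3.29 CPM in peritoneal stroma (-1.04 ± 0.61, adjusted p = 0.227), where the highest value came from mouse 1, as it did among the peritoneal tumour cells. The 5 calls held in each of the 8 fits that left out 1 library, and that of Nup107 was lost in 1 fit over all libraries (adjusted p = 0.0599). By the study's thresholds only Mdm2 passed, with 14.3% of all genes.

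Epithelial markers moved with this result. Of the 10 hepatic epithelial progenitor markers 9 could be tested in stroma and 7 were called higher in the liver stroma, with a median log2 fold change of 0.70, and their summed level was 1344 to 1699 CPM there and 722.8 to 1204 CPM in the peritoneal stroma. Krt18 (0.70 ± 0.14, adjusted p = 0.00460), Krt19 (0.86 ± 0.19, adjusted p = 0.00623) and Krt8 (0.55 ± 0.16, adjusted p = 0.0259) had fold changes near those of Rap1b, Nup107 and Slc35e3, with Krt8 overlapping between sites. Of 10 leukocyte markers 6 were also called higher in the liver stroma and none lower, with sums of 5533 to 6670 CPM there and 3802 to 5625 CPM in the peritoneal stroma. All 8 fibroblast markers were called lower in the liver stroma (median -3.45), with sums of 4171 to 8545 CPM against 55990 to 84090 CPM. All 6 hepatocyte markers tested were called higher (median 7.57), with sums of 46.2 to 290.5 CPM against 0.905 to 3.06 CPM, where Fga had no count in the peritoneal stroma. Of 6 endothelial markers 2 were called higher and 1 lower. As a share of the level in tumour cells of the same mouse, liver stroma held 15.5% ± 0.66 (SD, n = 4) of Krt18, 14.6% ± 1.8 of Nup107, 14.6% ± 1.8 of Slc35e3, 18.3% ± 2.5 of Mdm2, 19.3% ± 2.7 of Rap1b and 29.3% ± 4.3 of Cpsf6. In the peritoneum the shares were 8.44% ± 2.9 of Krt18, 9.22% ± 0.93 of Nup107, 7.42% ± 1.2 of Slc35e3, 10.2% ± 2.8 of Mdm2, 14.1% ± 2.0 of Rap1b and 24.4% ± 7.8 of Cpsf6. Cdh1, another epithelial marker, stood at 40.5% ± 4.4 in the liver and 26.3% ± 8.1 in the peritoneum, so the epithelial markers did not share 1 level. Epcam, from the same list, went the other way, with 5.69 CPM in liver stroma against 0.0669 CPM in liver tumour cells. In the peritoneum Epcam measured 4.45 CPM in stroma and 0.0488 CPM in tumour cells. The other 8 markers tested were called higher in tumour cells than in stroma at each site. The part of these cell types in the stromal values of the 6 genes was not tested.

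**Figure D5:**
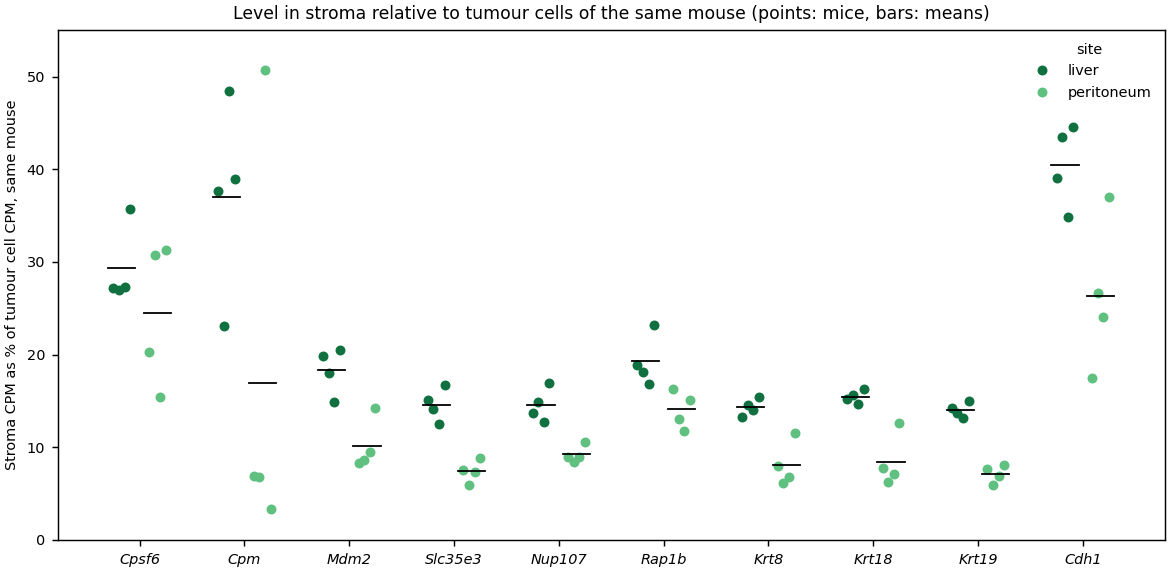
The vertical axis gives the CPM of a gene in stroma as a percentage of its CPM in tumour cells of the same mouse and site, with 1 point per mouse and a bar at the mean. For Slc35e3 and Nup107 the shares, 5.90% to 16.9%, lie in the same band as those of the keratins Krt8, Krt18 and Krt19, 5.90% to 16.3%, while the epithelial marker Cdh1 has means of 40.5% and 26.3% and Cpsf6 spans 15.5% to 35.7%.

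Whether the site effect differed between tumour cells and stroma was examined by an interaction term. The term is also the difference between sites of tumour cells against stroma, contrasts that had a part in choosing the genes. Its values and p-values are therefore a description. The term was negative for all 6 genes, that is, the liver minus peritoneum value was lower in tumour cells than in stroma. For Cpm, which was chosen for its liver tumour values, it was -2.42 ± 1.2 and is given without a p-value. The call was made for Slc35e3 (-0.99 ± 0.21, adjusted p = 0.00566) and Nup107 (-0.70 ± 0.22, adjusted p = 0.0437), against 14.3% of 15331 genes and a median over all genes of -0.12. Mdm2 had -0.86 ± 0.29 (adjusted p = 0.0598), which became -0.88 with an adjusted p of 0.0460 when the mouse was taken as a block. Rap1b (-0.47 ± 0.20, adjusted p = 0.137) and Cpsf6 (-0.38 ± 0.22, adjusted p = 0.267) did not pass. The call of Nup107 was lost in 13 of the 16 fits that left out 1 library and that of Slc35e3 in none.

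Among the genes whose profile over the 25 libraries was most like the mean of Cpsf6, Mdm2, Slc35e3, Nup107 and Rap1b were the kinase gene Rps6ka2 (Pearson's r = 0.974), the cadherin gene Cdh17 (0.972), Gm36117 (0.963) and the mitochondrial protease gene Lonp1 (0.961), with Spearman's rho between 0.870 and 0.945. Rps6ka2 and Lonp1 are genes of chromosome 17 and Cdh17 of chromosome 4. For Cpm they were Eps8l3 (0.843), Eci1 (0.811), Chrna2 (0.809), Bcas1 (0.799) and Acadm (0.787), the last an enzyme of fatty acid oxidation. Libraries of a group share their cells, so these are descriptions of 7 groups more than of 25 independent points.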

How the data were processed

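RNA was sequenced from 25 libraries in 7 groups, 9 of cultured cells and 16 of cells sorted from tumours of 4 mice. The authors aligned the reads to mm9 with TopHat2, according to the study's methods, and the deposited table holds unnormalized read counts for 24984 genes. The submitters' processing notes also list mm8, mm10, FastQC and Bowtie 0.12.2 without a role. The counting program, its strand setting and its annotation are not given in the sources used here. Positions were joined by symbol and identifier from GENCODE on NCBIM37 and were found for 89.2% of the genes, and promoter sequences came from RefSeq on GRCm38.p6.

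A fit held the libraries of the 2 groups compared and no others. The tool was edgeR 4.0.16 in R 4.3.3, with filterByExpr at a minimum count of 10, TMM factors and its quasi-likelihood F-test, and p-values were adjusted by the Benjamini-Hochberg method across every gene in the fit. A gene was called at an adjusted p under 0.05. The interaction was fitted over the 16 sorted libraries. DESeq2 1.42.0, other scalings, no filter, 1 fit over all libraries, a replicate block, lane 4 libraries alone and leaving out each library were alternatives. The fit was tested on simulated counts. CPM values with SD are over all 25 libraries after TMM, and 3 counts correspond to 0.0585 to 0.144 CPM, covering counting error only.

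The 6 genes and the gene lists were chosen with earlier results of these data known. Named genes were the 6, tested genes within 1 Mb, all p53 regulators, at most 4 called genes of each other list by size of change, 5 genes most like each profile by Pearson's r of log2(CPM + 1), and Cdk4, Hmga2, Frs2 and Yeats4. Partner genes without a call are named as the direct partners of the 6, and 4933411E08Rik and Gm32141 were added after their values were seen. One gene that the rule names is not reported here.

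Replicate numbers of the sorted libraries mark the mouse, so they pair samples. In the tumour and stroma of 1 site the deviations of same-numbered libraries correlated by 0.0608 to 0.264, and between sites by -0.171 to 0.219. In cultured cells a number names only a library.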

Additional observations from a re-analysis of the deposited data

Results flagged for a closer look

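The difference between liver and peritoneum was not the same in tumour cells and in stroma for 2 of the 6 genes, by the test of the interaction term (edgeR's quasi-likelihood test, 4 libraries a group), which called 14.3% of all genes. That term draws on the tumour cell against stroma values that had a part in choosing the genes, so its p-values are a description. For Slc35e3 the interaction was -0.989 on the log2 scale (adjusted p = 0.00566). Its liver minus peritoneum value was -0.28 ± 0.12 (SE) in tumour cells and 0.63 ± 0.14 in stroma, so the signs were opposite. The tumour cell value did not pass its own test and its groups overlapped, so a reversal of direction is not established. For Nup107 the interaction was -0.696 (adjusted p = 0.0437), with 0.02 ± 0.11 in tumour cells and 0.64 ± 0.17 in stroma, and its call was lost in 13 of the 16 fits that left out 1 library. The keratin markers of epithelial cells were also higher in the liver stroma (Krt18 by 0.70 ± 0.14), as were leukocyte and hepatocyte markers, while fibroblast markers were lower, and their part in both results was not tested. No library stood apart by Dixon's ratio at the 95% critical value in any of the 24 groups of 4 values, the peritoneal Cpm values included.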

How the results depend on the processing

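Over all alternatives no log2 fold change of the 6 genes that was called changed sign. The number of the 6 called moved by more than 1.5 times as follows. For RasLOW against BMEL WT the main count of 5 became 0 with only lane 4 libraries, where the lone control was assumed to vary like the other group, and 3 to 6 when 1 library was left out. For RasHIGH against BMEL WT it fell from 6 to 3 with only lane 4 libraries. For RasHIGH against RasLOW it was 0, 2 in 1 fit over all libraries and 1 with DESeq2. For liver against peritoneal tumour cells it was 0. It was 1 without the filter, in 1 fit over all libraries, with DESeq2 and by the study's thresholds. This was Cpm each time, chosen by its liver tumour values and so not read. The count was 0 to 1 when 1 library was left out. For liver against peritoneal stroma it was 5, and 1 by the study's thresholds. For liver tumour cells against RasHIGH it was 4, and 2 with total counts only and by the study's thresholds, and 2 to 5 when 1 library was left out. For peritoneal tumour cells against RasHIGH it was 2, and 0 by the study's thresholds. For the interaction it was 2, and 1 to 3 when 1 library was left out. The cause was not tested. The replicate block gave 4 in RasLOW against BMEL WT, without Mdm2 (log2 fold change 1.23, adjusted p = 0.0606), and 6 in RasHIGH against BMEL WT. In these comparisons the numbers name only libraries. Same-numbered libraries correlated by -0.201 to 0.101 there, and not every library correlated best with its own number. For the interaction the block gave 3. It changed no other call of the 6. For the p53 targets lower in RasLOW, 13 in the main fit, it gave 6, and lane 4 alone gave 0 in RasLOW and 5 in RasHIGH, where the main count was 19. Those alternatives for the lists were chosen after seeing the data. Scaling by total counts shifted the median of all genes to 0.134 in liver against peritoneal stroma, to 0.181 in tumour cells against stroma of the peritoneum and to -0.108 in liver tumour cells against RasHIGH. Relative to it no direction of a called gene of the 6 turned. Precision is limited by 3 or 4 libraries a group.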

Other observations

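RasLOW library 2 and RasHIGH library 1, which carry neighbouring library identifiers in the labels, were alike in several genes. They had the lowest Nup107 of their groups, 973.5 and 1182 CPM against 1938 to 2951 CPM in the other 4 Ras libraries. They had the highest Mdm2 of their groups, 3043 and 5309 CPM. Cdkn1a, a cell cycle inhibitor that p53 activates, was also highest in them, 479 and 391.3 CPM against 192.6 to 252.4 CPM, and Trp53 was lowest, 184 and 174.9 CPM. The log2 ratio of Nup107 to Rap1b was -0.92 and -1.44 in them and between -0.60 and 0.02 in the other 4. Neighbouring identifiers are not particular to them, since RasHIGH library 2 and RasLOW library 3 carry such a pair too.

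The ratio of Nup107 to Rap1b was lower again in tumour cells, from -2.57 to -1.81 on the log2 scale, since Rap1b was higher and Nup107 no higher than in RasHIGH cells.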
